A study of Mus musculus with 2 samples.

Results

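The cells described here were the cycling mesothelial cells of the newborn mouse ovary, 170 cells chosen by the transcripts they carried out of 8941 barcodes called as cells. They were found in 2 single-cell RNA sequencing libraries of whole ovaries of untreated female mice of the CD1 strain background at postnatal day 2, with 65 of the cells in replicate 1 and 105 in replicate 2. Each library pooled the ovaries of several pups of one female and was made on the 10x Genomics Chromium system, which counts each captured transcript once by a unique molecular identifier (UMI). The libraries are the replicates (n = 2), and the cells within a library are not. Replicate 1 held 54471790 UMIs in 4094 barcodes and replicate 2 held 59074480 UMIs in 4847 barcodes. No sort is named in the labels or methods, no genotype or treatment was varied, and the same pools supplied every group compared here. Of the barcodes, 21 sequences occurred in both libraries, and 0 of these were among the 170 cells.

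The choice had 3 steps. The first kept cells in which 500 or more genes were detected and mitochondrial UMIs made up no more than 10%, 3738 in replicate 1 and 4464 in replicate 2. A kept cell was taken as mesothelial when it had at least 2 UMIs of Upk3b and at least 3 of the 7 genes Upk1b, Lrrn4, Krt19, Krt7, Msln, Muc16 and Lgals7, when Col1a2 and Dcn together made less than 0.2% of its UMIs, and when Ddx4, Dazl and Ooep together made less than 0.05%. This gave 404 cells, 164 in replicate 1 (4.39% of kept cells) and 240 in replicate 2 (5.38%). A mesothelial cell was taken as cycling when at least 3 of the 6 genes Mki67, Top2a, Pclaf, Tk1, Rrm2 and Pbk had a UMI, and as non-cycling when 0 of the 6 had one. The 156 non-cycling cells (69 and 87) served as the comparison, and the 78 cells with 1 or 2 of the 6 genes (30 and 48) entered neither group. The 19 genes named here decided which cells were counted, so their levels are a description and no test of one of them is given.

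The mesothelium is the flat to cuboidal epithelium that covers the organs of the body cavity, and on the ovary it derives from the coelomic epithelium of the embryonic gonad. In the perinatal mouse ovary some surface cells carry Lgr5, the receptor through which R-spondins strengthen Wnt signalling, and cells of the surface are known to contribute granulosa cells to the cortex while the ovary grows. A cycling cell copies its DNA in S phase under E2F factors, then switches on a programme of G2 and mitosis genes under B-MYB and FOXM1, and the transcripts of both programmes mark its position in the cycle.

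The 6 genes that chose the cells each serve one of these phases. Mki67 encodes the Ki-67 protein that coats mitotic chromosomes, and Top2a encodes the topoisomerase that untangles replicated DNA. Pclaf encodes a partner of the replication clamp, Tk1 and Rrm2 encode enzymes that supply deoxynucleotides, and Pbk encodes a mitotic kinase. The 250 bases before the start of 4 of these genes are shown here to make visible the elements known from cell cycle promoters. All 4 hold the CCAAT box of the factor NF-Y, and those of Top2a and Mki67 also hold the CHR element, bound by the complex that represses cell cycle genes at rest. The sequences are from RefSeq on build GRCm38.p6 and are written 5′ to 3′ in the direction of the gene. Capitals mark the CCAAT box, the CHR element in its main form TTTGAA, its variant form with the letters TTCGAA, and an E2F motif with the letters TTGGCGC, each read on both strands.
Top2a: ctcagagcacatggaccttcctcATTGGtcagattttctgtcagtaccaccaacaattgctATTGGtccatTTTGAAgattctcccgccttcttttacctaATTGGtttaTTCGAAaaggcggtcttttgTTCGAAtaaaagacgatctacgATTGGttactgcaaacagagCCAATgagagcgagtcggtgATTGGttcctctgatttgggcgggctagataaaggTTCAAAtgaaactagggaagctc
Mki67: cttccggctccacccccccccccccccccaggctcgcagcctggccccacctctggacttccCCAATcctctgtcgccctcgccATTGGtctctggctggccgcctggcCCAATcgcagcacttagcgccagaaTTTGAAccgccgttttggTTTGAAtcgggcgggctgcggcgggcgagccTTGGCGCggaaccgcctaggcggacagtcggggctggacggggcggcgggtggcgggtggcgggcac
Pclaf: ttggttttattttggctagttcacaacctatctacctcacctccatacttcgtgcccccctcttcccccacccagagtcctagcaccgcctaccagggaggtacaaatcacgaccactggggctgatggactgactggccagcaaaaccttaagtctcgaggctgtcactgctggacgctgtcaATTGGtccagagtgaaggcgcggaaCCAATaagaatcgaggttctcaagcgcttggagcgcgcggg
Rrm2: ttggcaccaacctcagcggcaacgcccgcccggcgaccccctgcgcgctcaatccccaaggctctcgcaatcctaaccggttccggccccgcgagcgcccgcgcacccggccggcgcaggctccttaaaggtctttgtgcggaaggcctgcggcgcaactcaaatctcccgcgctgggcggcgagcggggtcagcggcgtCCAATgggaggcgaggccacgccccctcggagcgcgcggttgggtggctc

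The stretch of Top2a (chr11:99024190-99024439, minus strand) held 6 CCAAT boxes, 2 main CHR elements and 2 of the variant form. That of Mki67 (chr7:135716380-135716629, minus strand) held 3 CCAAT boxes, 2 main CHR elements and 1 of the E2F motif. Pclaf (chr9:65890073-65890322, plus strand) held 2 CCAAT boxes and Rrm2 (chr12:24708004-24708253, plus strand) held 1. The same window of Tk1 (chr11:117826015-117826264, minus strand) held 0 of the 5 motifs searched, which were the 4 just named and a further E2F motif with the letters TTCCCGC. Pbk was not in the promoter table. None of the letters of one motif contain another, although hits may overlap. Across all 27025 promoters of that table, 34.5% held at least 1 CCAAT. Of 49 promoters of G2 and mitosis genes 75.5% did, and of 34 promoters of S phase genes 67.6% did, as did 66.7% of 18 promoters of CDK inhibitors and growth arrest genes, 38.9% of 18 of immediate-early genes and 9.09% of 22 of mesothelial genes. The further E2F motif was in 3.84% of all promoters, in 35.3% of those of S phase genes and in 0 of 49 of those of G2 and mitosis genes, whereas the main CHR element was in 16.3% of all promoters, in 14.7% of those of S phase genes and in 32.7% of those of G2 and mitosis genes. A match is a run of letters and not evidence of binding.

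The 6 genes had UMIs in most but not all of the chosen cells. Pclaf was found in 96.9% of the cells of replicate 1 and 97.1% of those of replicate 2, and Top2a in 90.8% and 91.4%. Tk1 was found in 83.1% and 92.4%, Mki67 in 80.0% and 72.4%, Rrm2 in 76.9% and 66.7%, and Pbk in 72.3% and 66.7%. Mki67 (ENSMUSG00000031004, chr7:135689784-135716361, minus strand) reached 101 CPM (UMIs per 1000000 UMIs) in the cycling cells of replicate 1 and 83.9 in those of replicate 2, and was at 0 in the non-cycling cells because the choice required it. Taken against a floor of 3 counts over both libraries, this is at least 57.5-fold, and the same bound was 160-fold for Top2a and 203-fold for Pclaf. These values describe the choice and are not findings.

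Counted over all mesothelial cells, the number of the 6 genes per cell had its peaks at the ends of the scale. In replicate 1, 69 cells had 0 of the genes, 6 had exactly 3 and 27 had all 6. In replicate 2, 87 cells had 0, 17 had exactly 3 and 39 had all 6. Cells just outside the threshold, with exactly 2 genes, carried 13908 UMIs (replicate 1) and 9478.5 UMIs (replicate 2) at the median, and cells just inside, with exactly 3, had 21359 and 12726. Cells with exactly 1 gene had 11458 and 15318.5, and cells of replicate 1 with exactly 4 genes had 19140. At the ends of the scale the median was 10920 and 8632 UMIs with 0 genes and 23351 and 24442 UMIs with all 6. The median was thus higher at all 6 genes than at 0, but did not rise steadily between them in either library.

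**Figure D1:**
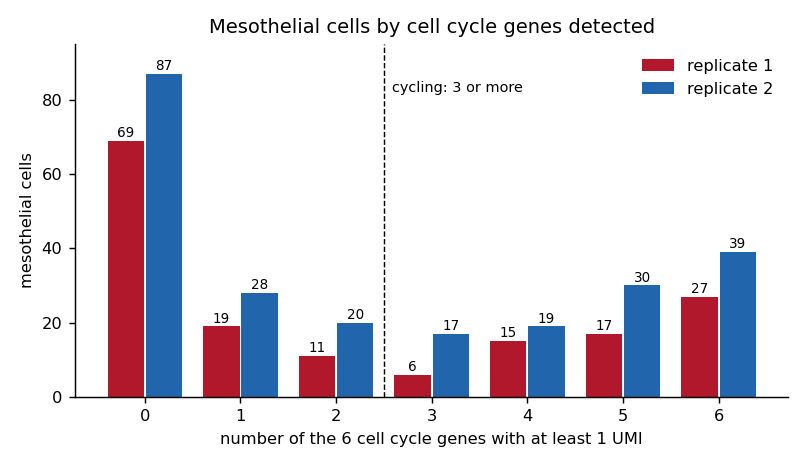
Number of mesothelial cells (y axis) by how many of the 6 cell cycle genes had at least 1 UMI (x axis), with bars for replicate 1 (red) and replicate 2 (blue) and the threshold as a dashed line. Cells with 0 genes (69 and 87) and with all 6 (27 and 39) outnumber cells at the threshold (6 and 17 with exactly 3).

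Cycling cells held more UMIs and more genes than non-cycling cells. Their median was 22153 UMIs and 4786 genes in replicate 1 and 20393 UMIs and 4821 genes in replicate 2, against 10920 UMIs and 3263 genes and 8632 UMIs and 2930 genes in the non-cycling cells. With every cell thinned to 2000 UMIs, the medians were 1071 and 1067 genes in cycling and 1041 and 1065 in non-cycling cells. A deeper cell shows more of the 6 genes at the same rate of transcription, so depth and cycling cannot be told apart in the choice of cells. Where thinning changed a named call below, the thinned result is given. Thinned fits kept the states assigned with all UMIs, so they do not take depth out of the choice. They also hold far fewer UMIs, and the part of that loss in a lost call was not tested. Only the shares of cycling cells were chosen again after thinning. Mitochondrial UMIs were 3.73% in the cycling cells of both libraries and 3.94% and 3.89% in the non-cycling cells. Scrublet scored 1 of 65 and 1 of 105 cycling cells as doublets. The median doublet score was 0.0471 and 0.0537 in cycling cells and 0.0145 and 0.0233 in non-cycling cells.

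The label of mesothelium was checked with markers outside the choice. Krt18, a keratin of simple epithelia, was at 969 and 967 CPM in the cycling cells of the 2 libraries, against 4.31 and 4.75 CPM in cycling interstitial cells and 22.0 and 53.3 in cycling granulosa cells. Interstitial cells were taken here as cells with at least 2 UMIs of Col1a2 and 3 of 7 stromal genes, and granulosa cells as cells with 3 of 8 granulosa genes, both with Upk3b at 0. The stated markers were also present, with Upk3b at 416 and 525 CPM and Krt19 at 623 and 578 CPM in the cycling cells, although both were part of the choice. The whole list of 30 mesothelial genes outside the choice summed to 6027 and 6235 CPM in the cycling mesothelial cells, against 1426 and 1392 CPM in cycling interstitial and 1272 and 1227 CPM in cycling granulosa cells, so the list set the classes apart by far less than Krt18 did. CPM of tested genes in mesothelial cells are scaled by TMM factors of 0.987 to 1.02, and CPM of other classes, of lists and of genes not tested are plain shares of all UMIs.

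Markers of other cell types were summed in both states of the mesothelial cells. The 20 interstitial markers summed to 975 and 1152 CPM in the cycling cells of replicates 1 and 2 and to 965 and 1300 CPM in the non-cycling cells, led by Col3a1, with Actg2 at 0. The 20 germ cell markers summed to 66.0 and 107 against 90.2 and 151 CPM, led by Ooep, with Oog1 at 0. Col1a2 and Dcn of the interstitial list and Ddx4, Dazl and Ooep of the germ cell list were capped by the choice, so low sums of these 2 lists follow from it in part. The 16 immune markers summed to 24.3 and 31.1 against 48.3 and 17.1 CPM, led by Cd74, with Ptprc, Mrc1 and S100a8 at 0. The 14 endothelial markers summed to 332 and 279 against 319 and 255 CPM, with 576 of their UMIs in the cycling cells from Kdr and with Tie1 and Erg at 0. The 9 erythroid markers in the files summed to 21.8 and 39.8 against 23.1 and 114 CPM, led by Hbb-bs. Cycling interstitial cells held 11441 and 11926 CPM of the interstitial markers. The endothelial markers did not set the classes apart, with 242 and 280 CPM in cycling interstitial and 290 and 231 CPM in cycling granulosa cells. Of the members of these lists outside the choice that were tested in the comparison described next, 0 passed in either direction. Under the fit with the library as a block, Fbln1 of the interstitial and Egfl7 of the endothelial list were called higher, and Nlrp5 of the germ cell list and Hba-a1 and Hbb-bs of the erythroid list lower. Fbln1 is described below with its values. Egfl7 was at 17.1 and 17.6 CPM in the cycling against 5.33 and 10 CPM in the non-cycling cells, Nlrp5 at 1.90 and 6.14 against 9.59 and 17.0 CPM, and Hba-a1 at 7.61 and 12.7 against 12.8 and 42.0 CPM. Hbb-bs, at 13.9 and 25.4 against 9.59 and 63.0 CPM, was higher in the cycling cells of replicate 1 and lower in those of replicate 2. The part of other cells in the other results was not tested.

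Summed over the cells of each library, 9147 genes were compared between cycling and non-cycling mesothelial cells with edgeR's quasi-likelihood test on 4 sums (2 libraries by 2 states, n = 2). At a Benjamini-Hochberg adjusted p under 0.05, 315 genes were higher in cycling cells (3.44% of those tested) and 20 were lower (0.219%). An unadjusted p under 0.05 was found for 1347 of the 9147 genes, both directions together. The fit held 17 of the 19 genes of the choice, and the 6 cell cycle genes are among the 315, so that outside the choice 309 of 9130 genes were higher (3.38%) and 20 lower. All of the called genes differed in the same direction in each library, and 268 of the higher and 4 of the lower genes differed by more than 2-fold. Both states of a library come from the same animals and the same droplet run, and with the library as a block 598 genes were higher (6.54%) and 274 lower (3.0%), among them all 315 and all 20. With all cells thinned to 2000 UMIs, 2453 genes could be tested, of which 81 were higher and 7 lower. The p-values cover only these 2 libraries, with a spread that is in part shared over genes. The block fit estimates a library term from the same 4 sums, so its p-values rest on still less spread between libraries. A block call does not require the 2 libraries to go the same way, as Hbb-bs above shows. A lower level in a sum may come from fewer cells with the transcript or from less of it per cell, and these cannot be told apart.

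Genes of the cell cycle made up many of the higher calls. The lists of cell cycle, histone and chromatin genes, with the 6 genes of the choice, held 123 of the 315 higher genes and 0 of the 20 lower ones, and 117 without those 6. Since the cells were chosen by genes of the same programme, the counts in these lists follow the choice and support nothing of their own. They give the position in the cycle and the size of the difference.

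**Figure D2:**
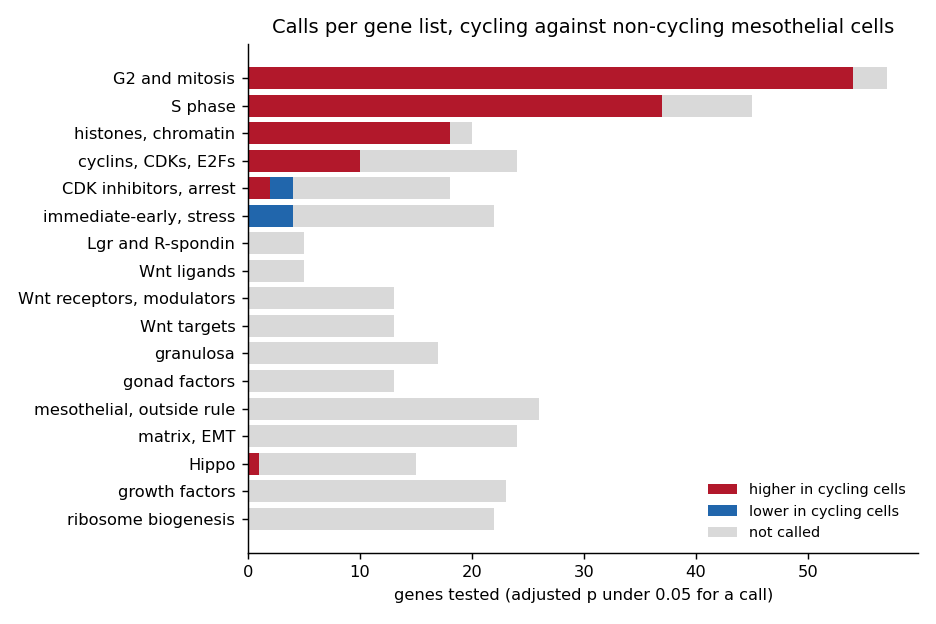
Number of genes tested (x axis) in each of 17 gene lists (y axis), split into genes higher in cycling cells (red), lower (blue) and not called (grey) at an adjusted p under 0.05 in the comparison of cycling with non-cycling mesothelial cells. Calls make up 54 of 57 G2 and mitosis genes and 10 of 24 cyclins, CDKs and their factors, and the Wnt, granulosa and mesothelial lists hold 0. Over all genes tested 3.44% were higher and 0.219% lower.

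Of 46 listed genes of DNA replication and S phase outside the choice, 45 were tested. Of these 37 were higher and 0 were lower, against 3.44% and 0.219% of all genes tested. With the library as a block 41 were higher, against 6.54% of all genes. The median log2 fold change was 1.56 against -0.0064 over all genes tested. Tyms, which makes the thymidylate for DNA, was at 155 and 140 CPM in the cycling cells of replicates 1 and 2 and at 30.9 and 17.0 CPM in the non-cycling cells, a log2 fold change of 2.63 (SE 0.24, adjusted p = 2.72e-05). Pcna, the replication clamp, was at 113 and 97.4 against 49.0 and 36.0 CPM (log2 fold change 1.31, SE 0.20, adjusted p = 0.00202). Mcm5, a subunit of the replicative helicase, was at 72.3 and 65.5 against 26.6 and 25.0 CPM (log2 fold change 1.41, adjusted p = 0.00167). For all 3 genes both cycling sums lay above both non-cycling sums, and the non-cycling cells still carried transcripts of each. Dut, the gene of the list with the most UMIs and the enzyme that keeps uracil out of DNA, was at 283 and 266 against 85.2 and 82 CPM. Clspn, an adaptor of the replication checkpoint, and E2f8, an E2F repressor, were at 0 UMIs in the non-cycling cells and at least 16.5-fold and 10.4-fold higher in the cycling cells. The genes not called included Mcm4, Cdca7, Rfc2, Wdr76, Ubr7, Pold3 and Casp8ap2. Of these Mcm4, another helicase subunit, had a log2 fold change of 1.06 (adjusted p = 0.059, and 0.000445 with the library as a block).

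The G2 and mitosis list moved further. All 57 listed genes were tested, 54 were higher and 0 lower, against 3.44% and 0.219% of all genes tested. The median log2 fold change was 4.18, or 4.07 with genes at 0 in the non-cycling cells set to their bound. Hmgb2, a chromatin protein abundant in dividing cells, had the most UMIs, with 1085 and 1043 CPM in the cycling cells of the 2 libraries against 207 and 175 CPM in the non-cycling cells (log2 fold change 2.48, SE 0.13, adjusted p = 6.71e-07). Birc5, the survivin subunit of the chromosomal passenger complex, was at 282 and 309 against 11.7 and 13 CPM (log2 fold change 4.57, SE 0.21, adjusted p = 3.57e-07). Cdk1, the kinase that drives entry into mitosis, was at 204 and 211 against 19.2 and 15.0 CPM (log2 fold change 3.6, SE 0.21, adjusted p = 1.09e-06). In each of these genes the 2 cycling sums lay close together and far above the non-cycling ones. Cenpf, a protein of the outer kinetochore, was at 186 and 182 against 2.13 and 10 CPM. Aurkb and Plk1, the kinases of the passenger complex and of the mitotic entry, were at 55.8 and 50.7 CPM and at 41.8 and 42.2 CPM in the cycling cells and at 0 UMIs in the non-cycling cells, so that they were at least 33.4-fold and 26.6-fold higher. Lbr, a receptor of the nuclear lamina, Ctcf, which organizes chromatin loops, and Cbx5, a heterochromatin protein, were the 3 genes not called, with log2 fold changes of 0.85, 0.63 and 0.46. All 57 were called higher with the library as a block, against 6.54% of all genes. For the 3 genes just named the adjusted p with the block was 0.0256 (Lbr), 0.00344 (Ctcf) and 0.0319 (Cbx5).

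Among cyclins, cyclin-dependent kinases (CDKs) and their transcription factors, 10 of 24 tested genes were higher and 0 lower, and with the library as a block 12 were higher and 1 lower. Over all genes tested 3.44% were higher and 0.219% lower, and 6.54% and 3.0% with the block. Ccnb1, the mitotic cyclin B1, was at 85.6 and 98.2 CPM in the cycling cells and had 3 UMIs in the non-cycling cells, a ratio of 59.1 with a counting interval of 20.1 to 288. Ccna2, the cyclin of S phase and G2, had 1 UMI in the non-cycling cells, a ratio of 189 with an interval of 33.7 to 7470. Foxm1 was at 22.8 and 28.2 against 2.13 and 3.0 CPM (log2 fold change 3.28, SE 0.44, adjusted p = 0.000697), and E2f1 at 57.7 and 53.2 against 17.0 and 24.0 CPM (log2 fold change 1.42, SE 0.24, adjusted p = 0.00416). The D cyclins, which act in G1, were not called. Ccnd2 was at 711 and 590 CPM in the cycling and 848 and 749 CPM in the non-cycling cells (log2 fold change -0.30, 95% interval -0.58 to -0.02, adjusted p = 0.306, and 0.0256 with the library as a block). Ccnd1 and Ccnd3 had log2 fold changes of 0.09 (interval -0.40 to 0.58) and 0.01 (-0.32 to 0.34). A p above the threshold does not show that a level was unchanged. Cdk4, the partner of the D cyclins, had 0.23 (-0.02 to 0.49).

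Of 20 tested genes of histones, chromatin and the mitotic spindle, 18 were higher, against 3.44% of all genes tested. H2afz, the histone variant H2A.Z, was at 2092 and 1842 CPM in the cycling cells against 514 and 564 CPM in the non-cycling cells (log2 fold change 1.87, SE 0.12, adjusted p = 1.49e-06). Tubb5, a beta tubulin, was at 2158 and 2152 against 872 and 924 CPM (log2 fold change 1.26, SE 0.10, adjusted p = 1.16e-05), and Stmn1, which destabilizes microtubules, at 1019 and 915 against 255 and 285 CPM (log2 fold change 1.84, SE 0.13, adjusted p = 3.04e-06). Histone and tubulin genes have near-identical copies, so the split of reads among them is uncertain. All 20 were called higher with the library as a block, against 6.54% of all genes. Outside the cell cycle lists 192 further genes were higher, and 5 of those with the largest fitted changes are given here, each at 0 UMIs in the non-cycling cells, so that their order rests on the floor. Aspm, which holds the spindle poles, and Cdca5, the cohesin protector sororin, were at least 17.3-fold and 14.5-fold higher, and Ncapg, a condensin subunit, was at least 11.8-fold higher. Bard1, the partner of BRCA1, and Mcm10, which starts replication forks, were at least 9.14-fold and 7.41-fold higher.

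The S phase and the G2 and mitosis lists were then read cell by cell as a share of each cell's UMIs. The 46 S phase genes made a median of 0.285% of the UMIs of a cycling cell in replicate 1 and 0.254% in replicate 2, against 0.0973% and 0.0944% in non-cycling cells. The 57 G2 and mitosis genes made 0.591% and 0.548% against 0.111% and 0.122%. The spread among cycling cells was wide, up to 0.891% and 1.13% for the S phase list and up to 2.76% and 2.41% for the G2 and mitosis list. With the 95th percentile of the non-cycling cells as the limit, 37 of 65 cycling cells of replicate 1 and 55 of 105 of replicate 2 were above it for both lists, 20 and 41 for G2 and mitosis only, 2 and 2 for S phase only, and 6 and 7 for neither. With cells thinned to 2000 UMIs the numbers were 28 and 39 for both, 16 and 47 for G2 and mitosis only, 11 and 3 for S phase only, and 10 and 16 for neither. Cells above the limit for G2 and mitosis only outnumbered cells above the limit for S phase only in both libraries, in both readings. The S phase limits, 0.253% and 0.235%, lay close to the medians of the cycling cells, non-cycling cells reached 0.412% and 0.391%, and a cell below the limit can hold S phase transcripts, so these numbers give no order of the phases. In replicate 2, 1 cell with 0 of the 6 genes had 0.917% of its UMIs in the G2 and mitosis list. These limits cut a continuous range and name no cell types.

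**Figure D3:**
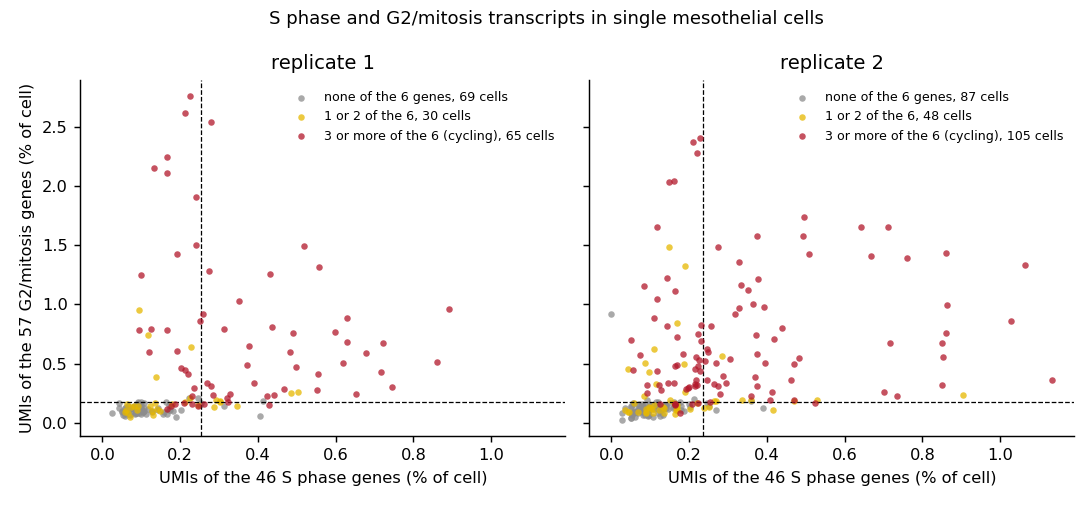
Share of each mesothelial cell's UMIs in 46 S phase genes (x axis, percent) and in 57 G2 and mitosis genes (y axis, percent), one point per cell, coloured by how many of the 6 cell cycle genes it carried, with the 95th percentile of non-cycling cells as dashed lines and one panel per library. Cycling cells spread up to 2.76% on the y axis and 1.13% on the x axis, and the highest non-cycling cells reach 0.412% (replicate 1) and 0.391% (replicate 2) on the x axis and 0.207% and 0.917% on the y axis.

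CDK inhibitors and growth arrest genes were called in both directions. Of 18 tested, 2 were higher and 2 lower, against 3.44% and 0.219% of all genes tested, with a median log2 fold change of -0.30 and 13 negative values. With the library as a block 2 were higher and 6 lower, against 6.54% and 3.0% of all genes. The higher genes were Cdkn2c (chr4:109660876-109667189), at 50.1 and 41.3 CPM in the cycling cells and 2.13 and 0 CPM in the non-cycling cells, and Cdkn2d, at 45.0 and 35.2 against 11.7 and 8.0 CPM. They encode the INK4 inhibitors p18 and p19, which bind CDK4 and CDK6. Cdkn2c had 2 UMIs in the non-cycling cells, a ratio of 42.6 with a counting interval of 11.6 to 354 (adjusted p = 7.41e-05), and the log2 fold change of Cdkn2d was 2.00 (SE 0.32, adjusted p = 0.00224). The lower genes were Btg2, an antiproliferative gene, which fell from 894 and 734 CPM in the non-cycling cells to 588 and 540 in the cycling cells (log2 fold change -0.53, SE 0.13, adjusted p = 0.0423), and Gadd45b, a stress sensor, which fell from 344 and 292 to 216 and 212 CPM (log2 fold change -0.57, SE 0.14, adjusted p = 0.0427). Both calls were lost with thinned cells, where the log2 fold changes were -0.63 and -0.64, and when cells with 1 or 2 of the 6 genes joined the non-cycling group, where they were -0.42 and -0.49. With DESeq2 the adjusted p was 0.0389 for Btg2 and 0.0925 for Gadd45b, and with cells chosen at 2 genes the call of Gadd45b was lost (adjusted p = 0.0604). Cdkn1c, the inhibitor p57, was at 356 and 241 CPM in the cycling against 543 and 338 CPM in the non-cycling cells (log2 fold change -0.57, 95% interval -1.05 to -0.09, adjusted p = 0.248). Its sums overlapped between the states, and within each library the cycling cells were lower, so that with the library as a block its adjusted p was 1.16e-05, and with thinned cells 0.0429. Cdkn1a, the inhibitor p21, had a log2 fold change of -0.08 (-0.50 to 0.34).

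The immediate-early and dissociation stress genes leaned to lower levels. All 22 listed genes were tested, 4 were lower and 0 higher, the median log2 fold change was -0.44, and with the library as a block 11 were lower. Of all genes tested 0.219% were called lower, and 3.0% with the block. Fos, a subunit of the AP-1 factor, fell from 1930 and 2108 CPM in the non-cycling to 1260 and 1567 CPM in the cycling cells (log2 fold change -0.51, SE 0.12, adjusted p = 0.0347). Junb, another AP-1 subunit, fell from 845 and 810 to 498 and 626 CPM (log2 fold change -0.56, SE 0.13, adjusted p = 0.0362). Zfp36, which speeds the decay of cytokine transcripts, fell from 398 and 297 to 173 and 228 CPM (log2 fold change -0.79, SE 0.18, adjusted p = 0.0257), a log2 ratio of -1.20 in replicate 1 and -0.39 in replicate 2, and the fourth call was Btg2, which is in both lists. The states did not overlap in any of the 4 genes. With thinned cells the 4 calls were lost, with log2 fold changes of -0.39 for Fos, -0.43 for Junb and -0.40 for Zfp36. When cells with 1 or 2 of the 6 genes joined the non-cycling group they were lost as well, with adjusted p of 0.125 for Fos, 0.0875 for Junb and 0.0513 for Zfp36. The part of depth and of the dissociation in these differences was not tested. Jund, the gene of the list with the most UMIs, was at 1907 and 1652 against 1888 and 1793 CPM.

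The remaining lower genes belonged to no one list. Tcp11l2 had the largest change, from 9.59 and 18.0 CPM in the non-cycling cells to 3.17 and 2.05 CPM in the cycling cells (log2 fold change -2.43, SE 0.54, adjusted p = 0.0256). Hmox1, which degrades haem, fell from 47.9 and 31.0 to 15.9 and 18.0 CPM (log2 fold change -1.20, SE 0.28, adjusted p = 0.0346). By library the log2 ratio was -1.60 and -3.14 for Tcp11l2 and -1.60 and -0.78 for Hmox1. Plat, the tissue plasminogen activator, fell from 150 and 128 to 89.4 and 72.0 CPM (log2 fold change -0.80, adjusted p = 0.0235), and Hbp1, a repressor linked to cell cycle exit, from 88.4 and 89.0 to 53.9 and 51.2 CPM (log2 fold change -0.76, adjusted p = 0.0305). Aldoa, the aldolase of glycolysis, fell from 795 and 688 to 404 and 460 CPM (log2 fold change -0.78, SE 0.13, adjusted p = 0.00314). The Aldoa call held with DESeq2 (adjusted p = 0.000189) and with thinned cells (0.000893). DESeq2 did not call Tcp11l2, Hmox1, Plat or Hbp1, with adjusted p of 0.191, 0.273, 0.0824 and 0.300. Plat was called with thinned cells (0.0181), where the other 3 had too few UMIs to be tested.

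The next question was whether the surface cells that divide carried the Lgr5 and Wnt transcripts of the surface to the same level as those that do not. Lgr5 (ENSMUSG00000020140, chr10:115450311-115587780, minus strand) was at 204 CPM in the cycling cells of replicate 1 and 150 CPM in those of replicate 2, and at 225 and 148 CPM in the non-cycling cells. The libraries differed more than the states. The log2 fold change was -0.08 (SE 0.21, 95% interval -0.53 to 0.37, adjusted p = 0.91), and a change within that interval was not detectable with 2 libraries. At least 1 UMI of Lgr5 was in 93.8% and 72.4% of cycling cells and in 88.4% and 65.5% of the shallower non-cycling cells. With every cell at 2000 UMIs the shares were 30.8% and 18.1% against 27.5% and 23.0%. In cycling interstitial cells, which had a median of 9084.5 and 7738 UMIs, Lgr5 was found in 0.765% and 0.588%, and in cycling granulosa cells, at 16122 and 17282.5 UMIs, in 5.21% and 5.41%.

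The ligands of the same pathway were not called. Of 9 listed Lgr receptors, R-spondins and their ubiquitin ligases 5 were tested, and of 19 Wnt ligands 5. In both lists 0 were called in either direction by edgeR or DESeq2, and 0 had an unadjusted p under 0.05. The edgeR test called 3.44% of all 9147 genes higher and 0.219% lower, and 1347 had such a p. At these shares, 0 among so few genes shows nothing particular to these lists. Rspo1, the R-spondin of the early ovary, was at 386 and 484 CPM in the cycling against 430 and 568 CPM in the non-cycling cells (log2 fold change -0.20, 95% interval -0.54 to 0.15). Wnt6 was at 367 and 383 against 447 and 429 CPM (-0.22, -0.49 to 0.04), and Wnt4, which the female gonad needs, at 28.5 and 50.3 against 36.2 and 34.0 CPM (0.21, -0.41 to 0.83). For Rspo1 and Wnt4 the states overlapped, and for Wnt6 both cycling sums were the lower ones. Wnt1, Wnt3, Wnt3a, Wnt7a, Wnt8a, Wnt8b, Wnt9b and Wnt16 had 0 UMIs in the cycling cells.

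Receptors, modulators and targets gave the same count. Of 28 Frizzled receptors, co-receptors and secreted modulators 13 were tested, and of 16 targets of canonical Wnt signalling 13. In each, 0 were called by edgeR or DESeq2, where edgeR called 3.44% of all genes tested higher and 0.219% lower. At an unadjusted p under 0.05, 1 receptor or modulator was higher and 1 lower, and 1 target was higher and 2 lower. Over all genes tested, 1347 of 9147 had such a p, both directions together. With the library as a block 1 receptor or modulator was called higher, Sfrp5 (log2 fold change 1.58, adjusted p = 0.0463), and 1 lower, Wls, which carries Wnt ligands to the cell surface (-0.37, adjusted p = 0.0498), and 2 targets were called lower, Myc and Sox4. Over all genes the block called 6.54% higher and 3.0% lower. Beside this, 1 of 13 receptors and modulators was called in each direction, and 0 of 13 targets were called higher and 2 of 13 lower. Whether these counts differ from the background was not tested. Axin2, a feedback inhibitor read as a sign of active signalling, was at 76.7 and 76.1 CPM in the cycling against 53.3 and 61.0 CPM in the non-cycling cells (log2 fold change 0.42, 95% interval 0.02 to 0.81, adjusted p = 0.307, and 0.151 with the library as a block). Both cycling sums of Axin2 were above both non-cycling sums, by less than the test could call, and with thinned cells the log2 fold change was -0.17. Nkd1, another feedback inhibitor, was at 160 and 174 against 128 and 200 CPM (0.03, -0.39 to 0.45). Myc, a target that drives growth, was at 20.9 and 21.3 against 47.9 and 34.0 CPM (log2 fold change -0.95, interval -1.50 to -0.39, adjusted p = 0.0708, and 0.00442 with the library as a block). Sox4 had an adjusted p of 0.276, and 0.0202 with the block (log2 fold change -0.33).

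**Figure D4:**
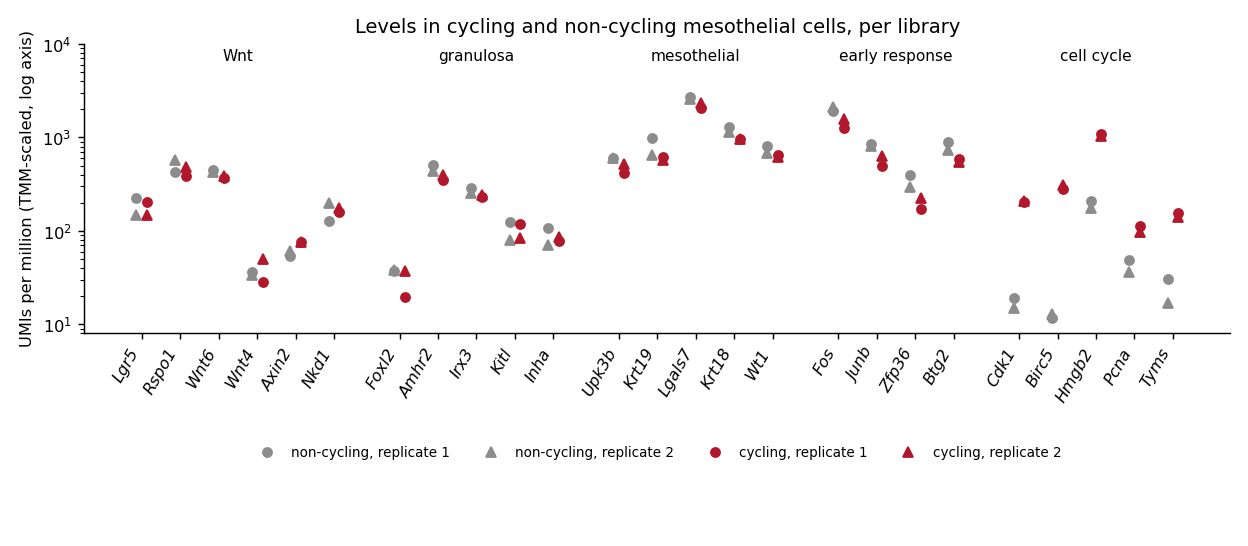
Counts per 1000000 UMIs (CPM, log axis, TMM-scaled) of single genes (x axis) in 5 groups, with non-cycling sums in grey and cycling sums in red, circles for replicate 1 and triangles for replicate 2. Grey and red points lie together for Lgr5 (204 and 150 against 225 and 148 CPM) and apart for Birc5 (282 and 309 against 11.7 and 13 CPM).

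Granulosa genes were present at low to moderate levels in both states. Of 30 listed granulosa and pregranulosa genes 17 were tested and 0 called by edgeR or DESeq2, with a median log2 fold change of -0.05. Over all genes tested, edgeR called 3.44% higher and 0.219% lower. At an unadjusted p under 0.05, 0 were higher and 2 lower, where 1347 of all 9147 genes tested had such a p in either direction. Of the 17 fold changes 14 were negative, and the median over all genes tested was -0.0064. With the library as a block 3 were called lower, against 3.0% of all genes. Foxl2, the factor that keeps granulosa cell identity, was at 19.7 and 37.7 CPM in the cycling against 37.3 and 38.0 CPM in the non-cycling cells (log2 fold change -0.34, 95% interval -0.99 to 0.31, adjusted p = 0.669). A UMI of Foxl2 was in 15.4% (95% exact binomial interval 7.63 to 26.5) and 32.4% (23.6 to 42.2) of cycling mesothelial cells, in 53.6% (48.5 to 58.6) and 61.6% (57.2 to 65.8) of cycling interstitial cells and in 89.1% and 87.8% of cycling granulosa cells. The intervals cover counting error only, the shares were not tested between classes, and the share that free RNA gives was not measured here. Foxl2, Kitl, Inha, Amhr2 and Irx3 were among the 8 genes by which granulosa cells were taken, which raises their level in that class. Amhr2, the receptor of anti-Müllerian hormone, was at 351 and 395 against 513 and 442 CPM (log2 fold change -0.36, interval -0.64 to -0.07, adjusted p = 0.228, and 0.013 with the library as a block). Nr0b1, a nuclear receptor that restrains steroid genes, had -0.81 (interval -1.33 to -0.29, adjusted p = 0.108, and 0.0078 with the block), and Serpine2, a protease inhibitor, was at 46.9 and 31.1 against 90.5 and 36.0 CPM (log2 fold change -0.72, adjusted p = 0.371, and 0.02 with the block), and its log2 ratio was -0.95 in replicate 1 and -0.21 in replicate 2. For Amhr2 the ratios were -0.55 and -0.16. Inha, the inhibin alpha subunit, and Kitl, the ligand of the oocyte receptor KIT, had log2 fold changes of -0.11 (-0.55 to 0.34) and -0.02 (-0.52 to 0.49). Fshr and Cyp19a1, genes of growing follicles, had 0 UMIs in the cycling cells. Summed over the list, granulosa genes made 1726 and 1755 CPM of the cycling and 2159 and 1909 CPM of the non-cycling mesothelial cells, against 6265 and 6001 CPM in cycling granulosa cells.

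Mesothelial identity genes outside the choice were tested as a further group. Of 30 listed genes 26 were tested and 0 called by edgeR or DESeq2, where edgeR called 3.44% of all genes tested higher and 0.219% lower. The median log2 fold change was -0.16 against -0.0064 over all genes tested. At an unadjusted p under 0.05, 2 were lower, where 1347 of all 9147 genes tested had such a p in either direction. The median was below 0, and 18 of the 26 genes had a negative fold change. Krt18 was at 969 and 967 CPM in the cycling against 1297 and 1135 CPM in the non-cycling cells (log2 fold change -0.33, 95% interval -0.57 to -0.09, adjusted p = 0.17), and Krt8, its partner keratin, at 549 and 554 against 736 and 653 CPM (-0.33, -0.59 to -0.07, adjusted p = 0.201). With the library as a block both were called lower (adjusted p = 0.00818 and 0.0137), 2 of 26 against 3.0% of all genes. Wt1, the zinc finger factor of the coelomic epithelium, was at 656 and 613 against 804 and 673 CPM (-0.22, -0.49 to 0.05), and Aldh1a2, which makes retinoic acid, at 295 and 225 against 283 and 273 CPM (-0.11, -0.44 to 0.23). Of the genes of the choice, Krt7 was at 155 and 204 CPM in the cycling and 280 and 273 CPM in the non-cycling cells, Lgals7, a galectin, at 2063 and 2339 against 2684 and 2565 CPM, and Muc16, a surface mucin, at 84.3 and 59.3 against 54.3 and 52.0 CPM. Of the 8 mesothelial genes of the choice, 7 had a negative and 1 a positive log2 fold change. They summed to 3408 and 3717 CPM in the cycling and 4660 and 4289 CPM in the non-cycling cells. These values are given without a test.

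Other groups of genes of a growing epithelium gave 0 or 1 call by edgeR and by DESeq2, where edgeR called 3.44% of all genes tested higher and 0.219% lower. At an unadjusted p under 0.05, 1 early gonad factor, 1 matrix gene and 5 genes of ribosome biogenesis were higher, and 1 growth factor gene, 1 matrix gene and 3 genes of ribosome biogenesis were lower. Over all genes tested, 1347 of 9147 had such a p, both directions together. Of 13 tested transcription factors of the coelomic epithelium and early gonad 0 were called, among them Gata4 (log2 fold change -0.02, 95% interval -0.37 to 0.33), Nr5a1 (-0.04, -0.45 to 0.37) and Lhx9 (-0.27, -0.62 to 0.07). Of 23 growth factors and receptors 0 were called, and Igf1, a growth factor, was at 60.9 and 63.8 against 73.5 and 115 CPM (-0.60, -1.06 to -0.14, adjusted p = 0.196, and 0.00589 with the library as a block). With the block Hes1, a Notch target, was called lower as well (adjusted p = 0.0347). Of 24 matrix and mesenchymal transition genes 0 were called, and with the block Hspg2, the basement membrane protein perlecan, was higher (log2 fold change 0.58, adjusted p = 0.0133) and Cdh11, a mesenchymal cadherin, lower (-0.63, adjusted p = 0.0482). Of 15 tested genes of Hippo signalling 1 was called, Birc5, described above. Of 22 tested genes of ribosome biogenesis 0 were called, although 4 were higher and 1, Myc, lower with the library as a block, against 6.54% and 3.0% of all genes, and Npm1, a nucleolar chaperone and the member with the most UMIs, was at 1706 and 1778 against 1650 and 2084 CPM. Fbln1, a matrix protein of the interstitial list, was at 64.7 and 59.3 against 28.8 and 41.0 CPM (0.82, 0.33 to 1.30, adjusted p = 0.0757, and 0.00294 with the block).

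The share of cells chosen as cycling moved with the depth at which the cells were read. By the same rule of 3 of 6 genes, 39.6% (95% exact binomial interval 32.1 to 47.6) of mesothelial cells of replicate 1 and 43.8% (37.4 to 50.3) of those of replicate 2 were cycling. The shares were 26.3% (24.1 to 28.6) and 20.1% (18.6 to 21.7) in interstitial cells and 12.8% (11.2 to 14.5) and 13.2% (10.5 to 16.3) in granulosa cells. Mesothelial cells were the deepest of the 3 classes in both states. With cells thinned to 2000 UMIs, the shares were 14.0% (9.10 to 20.3) and 10% (6.51 to 14.5) in mesothelial cells, 15.2% (13.4 to 17.1) and 12.4% (11.1 to 13.8) in interstitial cells and 3.71% (2.85 to 4.74) and 4.36% (2.81 to 6.41) in granulosa cells. Cells with fewer UMIs than that were left out, so these shares are of 1483 and 2497 interstitial and 1644 and 551 granulosa cells. No mesothelial cell was left out. At equal depth and 3 genes the mesothelial shares were thus not above the interstitial ones, and the intervals of the 2 classes overlapped in both libraries, while those of granulosa cells lay below. At equal depth and 2 genes the shares were 20.1% (14.3 to 27.1) and 20.8% (15.9 to 26.5) in mesothelial and 21.8% (19.7 to 24.0) and 17.9% (16.4 to 19.4) in interstitial cells, so that the order differed between the libraries. The summed level of the 6 genes over all cells of a class was 599 and 559 CPM in mesothelial, 794 and 680 CPM in interstitial and 237 and 208 CPM in granulosa cells. Per cell the order was another, with 11.1 and 10.1 UMIs of the 6 genes in mesothelial, 6.40 and 4.49 in interstitial and 2.88 and 2.65 in granulosa cells. In cells chosen as cycling the 6 genes made 1089 and 921 CPM in mesothelial and 2153 and 2206 CPM in interstitial cells. Equal depth thus does not make the rule equally sensitive in these classes. The intervals cover counting error only. With 2 libraries the shares were not tested between classes.

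**Figure D5:**
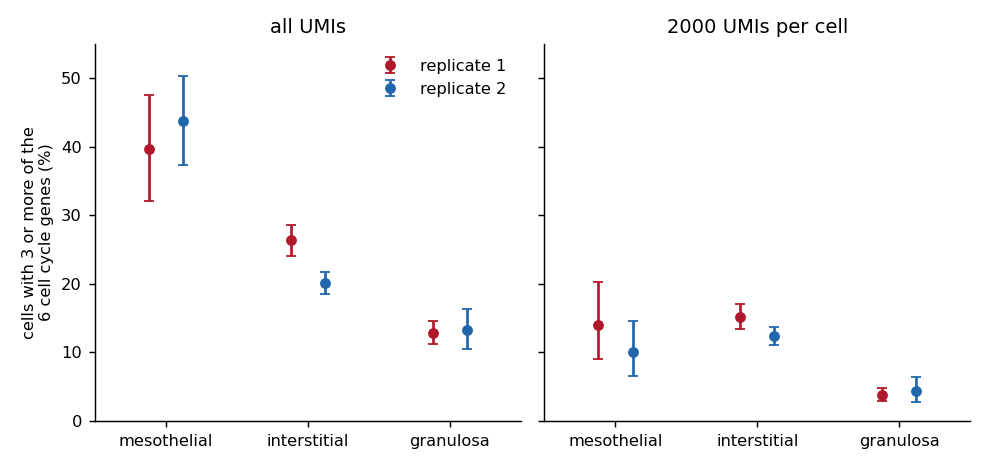
Share of cells with at least 3 of the 6 cell cycle genes (y axis, percent) in mesothelial, interstitial and granulosa cells, per library, with all UMIs (left) and with cells of at least 2000 UMIs thinned to 2000 UMIs (right). Bars are 95% exact binomial intervals, and the mesothelial shares of 39.6% and 43.8% on the left become 14.0% and 10% on the right, beside interstitial shares of 15.2% and 12.4%.

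The last comparison asked whether any gene differed between cycling and non-cycling cells by another amount in the mesothelium than in 902 cycling and 2302 non-cycling interstitial cells, or in 285 cycling and 1621 non-cycling granulosa cells. The test was the interaction of class and state in edgeR's quasi-likelihood fit of 8 sums (n = 2 per class and state). Against interstitial cells, 12176 genes were tested, 0 had a more positive difference in mesothelial cells (0.0%) and 3 a more negative one (0.0246%). At an unadjusted p under 0.05 there were 266 and 500 genes, and DESeq2 gave 0 and 11. With the library as a block, 6 and 35 genes were called.

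In these 3 genes the difference between cycling and non-cycling cells was smaller in the mesothelium than in interstitial cells. It was smaller in summed cell cycle lists too, which were not tested. The G2 and mitosis list was at 6329 and 6193 against 1150 and 1199 CPM in mesothelial cells and at 11211 and 12273 against 1247 and 1221 CPM in interstitial cells. The histone and chromatin list, which holds Stmn1, was at 12770 and 11588 against 5042 and 5371 CPM and at 19289 and 18885 against 5953 and 5243 CPM. Tuba1c, an alpha tubulin, was at 178 and 164 CPM in cycling and 87.3 and 71.0 CPM in non-cycling mesothelial cells, and at 156 and 147 against 10.8 and 10.7 CPM in interstitial cells, a difference of the log2 fold changes of -2.74 (SE 0.21, adjusted p = 0.000723). Its non-cycling mesothelial level was the one that stood apart. Psat1, an enzyme of serine synthesis, was at 87.5 and 69.6 against 58.6 and 48.0 CPM in mesothelial cells and at 67.1 and 50.4 against 8.55 and 8.09 CPM in interstitial cells (difference -2.31, SE 0.29, adjusted p = 0.0391). Stmn1 was at 1586 and 1425 against 186 and 161 CPM in interstitial cells (difference -1.32, SE 0.17, adjusted p = 0.0391), beside the mesothelial values given above. The adjusted p of Psat1 and Stmn1 were both 0.0541 when scaled by library size alone, 0.0672 and 0.0988 with the choice at 2 genes, and that of Psat1 was 0.389 with thinned cells.

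Against granulosa cells, 11213 genes were tested, 1 had a more positive difference in mesothelial cells (0.00892%) and 1 a more negative one (0.00892%), with 659 and 493 genes at an unadjusted p under 0.05. With the library as a block, 78 and 25 genes were called. The more positive gene was Irx3, a homeobox factor and one of the 8 genes by which granulosa cells were taken, so its level in that class is conditioned on the gate and its values are given with no test. It was at 230 and 239 CPM in cycling and 291 and 256 CPM in non-cycling mesothelial cells, and at 37.6 and 37.3 against 168 and 248 CPM in granulosa cells, a difference of the log2 fold changes of 2.22. Fabp5, a fatty acid binding protein, was at 538 and 447 against 792 and 490 CPM in mesothelial cells and at 86.0 and 80.9 against 14.3 and 12.2 CPM in granulosa cells (difference -3.05, SE 0.31, adjusted p = 0.0119). In each library its cycling sum was the higher one in granulosa cells and the lower one in mesothelial cells, although the mesothelial difference alone was not called (adjusted p = 0.389). The granulosa and interstitial gates shared 79 cells. Lgr5, Rspo1 and Wnt6 had differences of 1.20 (SE 0.86), 1.05 (SE 0.31) and 0.10 (SE 0.54) against interstitial cells, with adjusted p of 0.881, 0.678 and 0.996.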

How the data were processed

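Per the methods, ovaries were dissociated and loaded on the Chromium system (the labels name version 2 of the kit, the methods version 3). The authors deposited UMI counts per gene and barcode, whole numbers without normalization, and the submitters' processing notes name Cell Ranger 3.0.2 and GRCm38. Their cell filters and clustering are not given in the sources used here, and their test set each cell type against all others. Cells were gated by UMI counts in Python 3.11.15, and doublets scored with Scrublet in scanpy 1.11.5 at an expected share of 0.05 and the threshold of replicate 1 (0.225) for both libraries, because the threshold of replicate 2 (0.521) marked 2 cells. Doublets were kept in the main comparison. Counts were summed per library, class and state and tested by the quasi-likelihood functions glmQLFit and glmQLFTest of edgeR 4.0.16 (R 4.3.3) after filterByExpr and TMM scaling, with Benjamini-Hochberg adjustment and without a block. Same-library sums deviated together (r = 0.287 over 9147 genes), and the library pairs them, since both states of a library share animals and droplet run, so the alternative fit blocked on the library. Other alternatives were DESeq2 1.42.0, library size scaling, no filter beyond 1 UMI, 2 or 4 of 6 genes, non-cycling cells with under 3, doublets left out, thinning to 2000 UMIs and each library left out. Kept cells had medians of 8773 and 6254 UMIs, and the 4 sums 1606662 and 2509546 UMIs in cycling and 953279 and 993061 in non-cycling cells. Floors used 3 counts over both libraries. Members of the lists were named when called, up to 6 in each direction, with the most abundant member, and otherwise the 10 largest changes in each direction with at least 20 UMIs. Lgr5 was always named, and further genes were chosen after their values were seen. The cells, lists and tests were chosen with earlier results of these data known. The scripts were tested on simulated data. Promoters are from RefSeq on GRCm38.p6 and gene positions from the GENCODE annotation of GRCm38, joined by identifier.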

Additional observations from a re-analysis of the deposited data

Results flagged for a closer look

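In 4 genes the difference between cycling and non-cycling cells was not the same in mesothelial cells as in another class, by the interaction test of edgeR over all genes. Against interstitial cells the difference of log2 fold changes was -2.74 for Tuba1c, -2.31 for Psat1 and -1.32 for Stmn1, and against granulosa cells it was -3.05 for Fabp5. In each of these genes both libraries had the same direction of the difference. The summed G2 and mitosis list, which was not tested, also differed less between the states in mesothelial than in interstitial cells. The calls of Psat1 and Stmn1 were lost with library size scaling and with the choice at 2 genes, and that of Psat1 also with thinned cells. A difference of 2.22 for Irx3 against granulosa cells is given with no test, since Irx3 is one of the 8 genes by which granulosa cells were taken. The part of depth, of RNA from other cells and of the gates in these differences was not tested.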

How the results depend on the processing

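Fits differed in how many genes they called. Against the 315 higher genes, the replicate block with the library as the pair gave 598, DESeq2 209, no filter on low counts 473 and thinned cells 81. Against the 20 lower genes, the block gave 274, DESeq2 7, no filter 71, the choice at 4 genes 31, thinned cells 7 and non-cycling cells with under 3 genes 10. Library size scaling, the choice at 2 genes and leaving out doublets kept both counts within 1.5 times. For the interaction with interstitial cells, 0 higher became 6 with the block and 20 with no filter, and 3 lower became 35 with the block, 11 with DESeq2, 41 with no filter and 1 each with library size scaling, the choice at 2 genes and non-cycling cells with under 3 genes. For granulosa cells, 1 higher became 78 with the block, 35 with DESeq2, 281 with no filter and 0 with the choice at 2 or 4 genes, thinned cells or non-cycling cells with under 3 genes, and 1 lower became 25 with the block, 9 with DESeq2 and 65 with no filter. The cause of these changes was not tested. The share of cycling mesothelial cells became 14.0% and 10% with thinned cells, and in replicate 2 52.1% at 2 genes and 36.7% at 4. Of 80 single-gene results, those called kept their direction in each fit that gave them a value. Thinned cells gave no value for some of them, among them E2f1, Foxm1, Mybl2, Ccnf, Cdkn2c and Cdkn2d. In these fits 4 uncalled genes turned sign: Axin2 to -0.17 with thinned cells, Nkd1 to -0.0063 at 2 genes and -0.0 with library size scaling, Kitl to 0.0020 with the block and 0.0033 with no filter, and Fst to -0.0502 without doublets. DESeq2 lost 9 calls, thinned cells 9 among the results they gave, and non-cycling cells with under 3 genes 11. The choice at 2 genes lost 4, library size scaling 2 and the choice at 4 genes 1. The block added 11 calls, no filter 3, and the choice at 2 genes and thinned cells 1 each. Leaving out a library leaves 1 sum per state, so counts of calls have no such value. The single-library log2 ratio of Cenpf was 4.19 without replicate 1 and 6.45 without replicate 2, against 4.88 in the main fit. In 6 uncalled genes the single-library ratio changed sign. Without replicate 1 and without replicate 2 it was 0.0165 and -0.143 for Lgr5, 0.565 and -0.344 for Wnt4, -0.199 and 0.328 for Nkd1, 0.0789 and -0.0641 for Kitl, 0.281 and -0.452 for Inha and -0.0431 and 0.237 for Fst. With 2 libraries and 170 cells, genes of low level could not be tested, and depth and cycling could not be told apart in the choice of cells.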
